A study of Mus musculus with 96 samples.

Results

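Chromatin accessibility of hepatocyte nuclei was compared between the early night (ZT15) and the late night (ZT20) in mice that had food throughout. The comparison rests on 8 mice, 4 at each time, out of 32 mice with hepatocyte nuclei and 64 mice in the whole series. They were chosen by label alone: the ad libitum fed animals of the hepatocyte table that were taken 3 h and 8 h after ZT12. ZT counts the hours from lights on, and ZT12 is the onset of the active phase of mice, which eat mostly at night. In the series these animals are the time-matched controls of mice whose food was removed at ZT12, and the labels state that fed mice were included to account for changes over the day. All animals are female HEP-INTACT mice, in which a tag on hepatocyte nuclei lets these nuclei be captured on beads from a whole liver. The labels used here state neither the promoter that drives the tag nor the age of the mice. The mouse is the replicate, and each time is a separate set of animals. Captured nuclei were cut with a transposase that inserts sequencing adapters into open DNA (ATAC-seq). The unit of description is a peak of 200 bases, and 46827 of the 46832 listed peaks were tested over both times. A level is given in normalized reads, which are the reads in a peak divided by 1 factor per library, per mouse or as mean ± SD of 4 mice. Replicates are numbered within a time and have no order. A difference is on the log2 scale, ZT20 minus ZT15, of normalized reads plus 2, given ± SE. Adding 2 understates changes from a low level. A fold is 2 raised to the size of that difference. A peak passed when the limma p adjusted by Benjamini-Hochberg over all tested peaks was under 0.05.

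Open chromatin marks promoters and enhancers that factors occupy. In liver, as in other tissues, a molecular clock turns such elements on and off over the day. CLOCK or its paralogue NPAS2 pairs with BMAL1 (Arntl) on E-box sequences and activates genes that include the clock's own repressors, the PER, CRY and CIART proteins and the REV-ERB receptors (Nr1d1, Nr1d2). The REV-ERBs and the ROR receptors compete on RORE sequences of genes such as Arntl and Npas2, and the PAR bZIP factors DBP, TEF and HLF carry the rhythm to metabolic genes through D-boxes, where NFIL3 opposes them. Feeding, insulin and glucocorticoids act on liver chromatin over the same hours.

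Promoter sequence is shown for 2 peaks that passed at the start sites of Ciart and Zfp292, in opposite directions, and for Dbp, a classical clock output gene whose promoter peak did not pass. The sequences are the 250 bases before the RefSeq start site in GRCm38.p6, 5′ to 3′ on the strand of the gene. Capitals mark the E-box letters CACGTG, which read the same on both strands. The windows lie at chr3:95882229-95882478 on the minus strand, chr4:34882949-34883198 on the minus strand and chr7:45704997-45705246 on the plus strand.
Ciart: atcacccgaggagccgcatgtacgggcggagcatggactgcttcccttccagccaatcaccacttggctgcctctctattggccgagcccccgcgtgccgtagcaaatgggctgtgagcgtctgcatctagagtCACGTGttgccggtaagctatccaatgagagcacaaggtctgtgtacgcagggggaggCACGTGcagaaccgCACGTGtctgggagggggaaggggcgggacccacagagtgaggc
Zfp292: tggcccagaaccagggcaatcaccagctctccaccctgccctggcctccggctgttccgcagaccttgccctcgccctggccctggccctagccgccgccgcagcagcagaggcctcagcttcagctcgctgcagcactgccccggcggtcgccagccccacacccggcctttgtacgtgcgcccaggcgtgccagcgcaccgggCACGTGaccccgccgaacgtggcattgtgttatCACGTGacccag
Dbp: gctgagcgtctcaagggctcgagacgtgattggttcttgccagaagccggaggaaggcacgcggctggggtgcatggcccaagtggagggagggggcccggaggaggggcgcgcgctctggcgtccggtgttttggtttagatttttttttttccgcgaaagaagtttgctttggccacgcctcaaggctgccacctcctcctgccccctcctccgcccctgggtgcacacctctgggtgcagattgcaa
The Ciart sequence holds 3 such E-boxes, whose first bases lie 116, 58 and 44 bases before the start. Zfp292 has 2 of them, at 45 and 12 bases, and Dbp has none. The RORE letters TAGGTCA, the D-box letters TTATGCAA and TTACGTAA and the cyclic AMP element TGACGTCA were searched on both strands as well and occur in none of these 3 sequences. Of 32851 RefSeq promoter windows of 300 bases, 7.15% hold at least 1 CACGTG, 0.594% at least 2 and 0.0883% at least 3. Passing peaks also overlapped the promoter windows of Hdgf, which holds the D-box letters TTATGCAA and no CACGTG, and of Cabcoco1, which holds none of these letters. Ciart and Zfp292 were thus shown as the ones with E-boxes, and the shares above are not a test of promoters that passed. The match of letters is a description, and the same E-box letters stand in a promoter that was lower and in one that was higher at ZT20.

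The libraries of the compared mice overlapped in depth and had open promoters at hepatocyte markers. Reads in peaks numbered 4353411 to 4940608 per mouse at ZT15 and 3534152 to 5359367 at ZT20. Of 12 hepatocyte marker genes 10 had a promoter peak, within 1 kb of a start site, and their summed level was 1718 to 1947 normalized reads at ZT15 and 1877 to 2133 at ZT20. None of the 12 Kupffer cell and macrophage markers and none of the 12 endothelial markers had a promoter peak in the table. Promoter peaks stood at 1 of 12 stellate, 3 of 10 cholangiocyte, 1 of 10 monocyte and neutrophil and 1 of 12 lymphocyte markers, with summed levels of 10.3 to 24.7, 146 to 157, 33.4 to 37.9 and 52.4 to 63.8 at ZT15 and 16.7 to 48.3, 141 to 157, 32.7 to 42.7 and 62.4 to 70.6 at ZT20. No promoter peak of a marker list passed the limma test, and the part of other cells in the results was not tested.

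Few hepatocyte peaks differed between the early and the late night of fed mice. In limma 68 of 46827 peaks passed (0.145%), of which 24 were higher (0.0513%) and 44 lower (0.094%) at ZT20. The differences that passed were 1.31-fold to 2.88-fold at the higher peaks and 1.35-fold to 3.72-fold at the lower ones, and 33 of them reached 2-fold, 10 higher and 23 lower. At an unadjusted p under 0.05 stood 3828 peaks (8.17%). Over all tested peaks the median difference was 0.03 with a median SE of 0.16, and 97.7% of peaks differed by less than 1.5-fold. The levels of the 4 and 4 mice did not overlap at 67 of the 68 peaks that passed, against 3600 of all tested peaks (7.69%). The peaks passed on these same values, so this separation follows in large part from the choice and is not separate support. The fit shares 1 estimate of the spread over 8 groups, and the median SD per peak on the log2 scale was 0.164 at fed ZT15 and 0.168 at fed ZT20, 0.195 and 0.175 at fed ZT4 and ZT12, and 0.172 to 0.254 in the 4 fasted groups. Fitted on the 2 fed groups alone, limma called 771 peaks (1.65%), 382 higher and 389 lower, and these include all 68. Leaving out 1 of the 8 mice in turn gave 20 to 120 calls: 20 without ZT20 replicate 3 and 120 without ZT20 replicate 2. Of the 68 peaks, 12 passed in each of these 8 fits and 3 in none. ZT20 replicate 2 had the lowest of the 4 ZT20 levels at 17 of the 24 higher peaks. At the 44 lower peaks ZT20 replicate 3 had the lowest ZT20 level at 19, against 5 to 10 for each other ZT20 mouse.

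**Figure D1:**
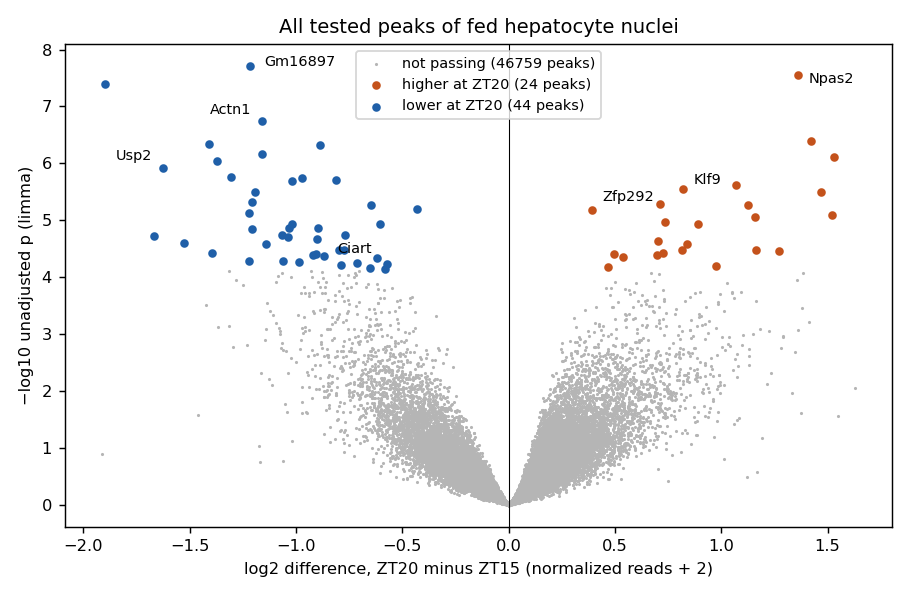
Each point is 1 of the 46827 tested peaks, with the log2 difference ZT20 minus ZT15 on the x axis and −log10 of the unadjusted limma p on the y axis, 4 fed mice per time. Blue points are the 44 peaks that passed as lower and orange points the 24 that passed as higher at ZT20; the grey cloud of the others lies mostly within 1 log2 unit of 0.

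One of the lower peaks lay in Usp2, which encodes a deubiquitinase that is itself under clock control in many tissues. The peak at chr9:44079466-44079666 is intronic, 5354 bases upstream of the nearest annotated start site. It held 23.1, 31.7, 19.9 and 34.8 normalized reads in the ZT15 mice and 11.02, 9.28, 5.57 and 4.76 in the ZT20 mice. Every ZT20 mouse thus lay below every ZT15 mouse, and the difference was -1.63 ± 0.28 (3.09-fold; limma adjusted p = 0.00504). It passed in all 8 fits that leave out 1 mouse. The lowest adjusted p among lower peaks, 0.000634, was shared by peaks at 2 non-coding genes, Gm16897, 16.3 kb from Cd34, and 4930452A19Rik. The 4930452A19Rik peak had the largest difference of all that passed, from 27.8 ± 3.51 to 6.49 ± 3.32 normalized reads (-1.90 ± 0.28).

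Ciart and its neighbour Mrps21 gave 3 peaks that passed. CIART, also called CHRONO, is a repressor of the CLOCK and BMAL1 pair. Its promoter peak at chr3:95882173-95882373, which covers all 3 E-boxes of the sequence above, held 127, 153, 125 and 154 normalized reads at ZT15 and 86.3, 121, 77.3 and 92.3 at ZT20. The groups did not overlap, but one ZT20 mouse came within a few reads of the lowest ZT15 mouse. The difference was -0.57 ± 0.13 (1.49-fold; limma adjusted p = 0.0434), and it passed in 1 of the 8 fits without 1 mouse, with an adjusted p of up to 0.191. The other peaks stand 13.1 and 13.4 kb from the Ciart gene body, in introns of Mrps21, a mitochondrial ribosomal protein gene. The one at chr3:95865314-95865514 held 44.9, 41.3, 44.6 and 41.3 at ZT15 and 15.6, 22.3, 9.75 and 14.3 at ZT20. Its ZT15 mice lay close together, and all ZT20 mice were far below them, with a difference of -1.41 ± 0.23 (2.66-fold; limma adjusted p = 0.00317). Its neighbour, 6384 bases from the same start site, fell from 57.6 ± 2.92 to 28.0 ± 8.16 normalized reads (limma adjusted p = 0.0191). Of the other Ciart peaks, those at 471 bases upstream, 201 bases downstream and 2966 bases downstream were also lower in every ZT20 mouse, with differences of -1.14, -0.67 and -0.92, and missed the threshold (limma adjusted p = 0.0845, 0.0672 and 0.0991).

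An intronic peak of Gldc, the glycine decarboxylase of the mitochondrial glycine cleavage system, held 62.2, 55.3, 52.8 and 52.9 at ZT15 and 20.2, 21.4, 16.0 and 22.6 at ZT20. The groups were far apart, with a difference of -1.40 ± 0.30 (limma adjusted p = 0.0342). A peak 5681 bases upstream of Ier3, an immediate early gene that modulates cell survival, held 28.2, 39.1, 34.3 and 35.5 at ZT15 and 19.3, 12.1, 7.66 and 13.7 at ZT20, a fall of 2.47-fold (limma adjusted p = 0.00626). Sik1 encodes a salt-inducible kinase that restrains the cyclic AMP programme of gluconeogenesis. Its peak, 48426 bases upstream and 40.5 kb from the Hsf2bp gene body, held 86.6, 124, 117 and 105 at ZT15 and 50.5, 79.8, 50.2 and 47.6 at ZT20. The highest ZT20 mouse lay just under the lowest ZT15 mouse, and the difference was -0.92 ± 0.20 (limma adjusted p = 0.0342). The peak nearest to Dpysl2, an adaptor of cytoskeletal signalling, lies 13.1 kb from Adra1a, the alpha-1A adrenergic receptor, and fell from 23.6 ± 3.59 to 7.60 ± 4.31 normalized reads (limma adjusted p = 0.0275). Actn1 encodes an actin crosslinker. A peak 64601 bases upstream of it, and 10.9 kb from the Dcaf5 gene body, fell from 104 ± 10.4 to 47.3 ± 16.8 normalized reads (limma adjusted p = 0.00214), in all 8 fits without 1 mouse. An intronic peak of Slc24a3, a potassium-dependent sodium and calcium exchanger, fell from 22.3 ± 3.11 to 8.56 ± 2.33 normalized reads (limma adjusted p = 0.0409), but passed in none of those 8 fits, with an adjusted p of up to 0.21. Intronic peaks of Thrb, the thyroid hormone receptor beta, of Smarca2, an ATPase of the SWI/SNF remodeller, and of Tns3, a focal adhesion protein, were singled out here after their values were seen. They fell by 2.29-fold, 2.24-fold and 1.96-fold (limma adjusted p = 0.00792, 0.00402 and 0.00626). Among promoter peaks, that of Hdgf, a heparin-binding growth factor, fell from 38.3 ± 3.68 to 21.6 ± 4.38 normalized reads (limma adjusted p = 0.0451), passing in 1 of the 8 fits without 1 mouse, with an adjusted p of up to 0.217.

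Npas2, the paralogue of CLOCK, had a peak that was higher at ZT20. The peak at chr1:39192796-39192996 is intergenic, 1376 bases upstream of the start site, and Npas2 had no peak within 1 kb of it. It held 66.7, 38.4, 31.5 and 39.2 normalized reads in the ZT15 mice and 106, 98.4, 124 and 119.6 in the ZT20 mice. Replicate 1 was the highest ZT15 mouse by a wide margin and still lay below all ZT20 mice. The difference was 1.36 ± 0.19 (2.56-fold; limma adjusted p = 0.000634), and it passed in all 8 fits without 1 mouse. The next peaks upstream, at 1531 and 1795 bases from the start, were higher in every ZT20 mouse too, by 0.98 and 1.38, without passing (limma adjusted p = 0.0845 and 0.0521).

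Klf9 encodes a Krüppel-like factor that glucocorticoids and thyroid hormone induce. A peak 6212 bases upstream of it, at chr19:23134914-23135114, held 50.7, 55.3, 47.3 and 54.4 at ZT15 and 91.8, 85.4, 94.0 and 101 at ZT20. Both groups were tight and lay well apart, with a difference of 0.82 ± 0.15 (1.76-fold; limma adjusted p = 0.00791). In Lifr, the receptor of leukaemia inhibitory factor in the acute phase response, an intronic peak held 99.5, 102, 110.4 and 131 at ZT15 and 155, 149, 167 and 152 at ZT20, a difference of 0.50 ± 0.11 (limma adjusted p = 0.0342). The peak nearest to Arrdc4, an alpha-arrestin induced by glucose, held 16.7, 8.85, 16.5 and 22.5 at ZT15 and 46.8, 26.9, 62.7 and 65.5 at ZT20. ZT20 replicate 2 was near the highest ZT15 mouse and the other ZT20 mice were far above it, with a difference of 1.52 ± 0.29 (limma adjusted p = 0.0138). An intronic peak of Kif21a, a kinesin motor, had the same layout, 12.2, 8.85, 17.1 and 16.7 at ZT15 and 56.9, 24.1, 44.6 and 42.9 at ZT20, and differed by 1.47 ± 0.27 (limma adjusted p = 0.00792). A peak 133502 bases from Dph6, an enzyme of diphthamide synthesis, rose from 30.2 ± 7.81 to 68.1 ± 15.7 normalized reads (limma adjusted p = 0.0108). The largest higher difference, 1.53 ± 0.26, was at an intronic peak of 1700010I14Rik, 8.89 kb from Pde10a, a cyclic nucleotide phosphodiesterase (from 18.5 ± 4.57 to 57.8 ± 16.7 normalized reads; limma adjusted p = 0.00402).

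Of the promoter peaks, that labelled Gm10549 rose most, from 17.7 ± 6.89 to 44.7 ± 11.9 normalized reads (1.27 ± 0.27; limma adjusted p = 0.0338), passing in 2 of the 8 fits without 1 mouse, with an adjusted p of up to 0.162. Its annotation places it in the promoter of the protein-coding gene Nrep, whose body lies 337 bases away. The promoter peak of Cabcoco1, which encodes a calcium-binding coiled-coil protein, rose from 28.8 ± 8.02 to 60.9 ± 3.91 normalized reads (1.07 ± 0.19; limma adjusted p = 0.00699). The promoter peak of Zfp292, a zinc finger protein gene, at chr4:34882950-34883150, covers both E-boxes of its sequence and held 157, 164, 149 and 159.6 at ZT15 and 225, 206, 212 and 187 at ZT20. The ZT15 mice spanned a narrow range below all ZT20 mice, and a difference of 1.31-fold passed (0.39 ± 0.07; limma adjusted p = 0.0123). Some higher peaks with a non-coding or distant gene as their label lay near signalling genes and were singled out after their values were seen. A peak 9.11 kb from Socs2, a feedback inhibitor of growth hormone signalling, rose from 52.9 ± 3.28 to 87.1 ± 9.66 normalized reads (limma adjusted p = 0.0342). A peak 2.16 kb from Arid5b, a chromatin regulator of fat storage, rose from 33.0 ± 5.59 to 60.0 ± 12.6 normalized reads (limma adjusted p = 0.0328), and one 44.6 kb from Irs2, an insulin receptor substrate, rose from 52.9 ± 5.74 to 96.2 ± 10.5 normalized reads (limma adjusted p = 0.0275). A peak labelled Tm9sf3 but inside Pik3ap1, an adaptor of phosphoinositide 3-kinase, rose from 20.6 ± 4.42 to 40.0 ± 7.82 normalized reads (limma adjusted p = 0.0171). Each of these 4 peaks passed in at most 2 of the 8 fits without 1 mouse, with adjusted p up to 0.162, 0.191, 0.135 and 0.116.

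Of the peaks named so far, Usp2, Gm16897, 4930452A19Rik, the first Mrps21 peak, Actn1, Smarca2, Tns3, Npas2 and 1700010I14Rik passed in all 8 fits that leave out 1 mouse. Ier3, Klf9 and Cabcoco1 passed in 7, with adjusted p of at most 0.0623, 0.0503 and 0.0594. The call was lost more often at Thrb (passed in 6), Zfp292 and Kif21a (5 each), Dph6 (4) and Arrdc4 (3), with adjusted p up to 0.0638, 0.0981, 0.0837, 0.0855 and 0.104. Dpysl2, Sik1 and Lifr passed in 2 each and Gldc and the second Mrps21 peak in 1 each, with adjusted p up to 0.204, 0.167, 0.141, 0.134 and 0.133. With all mice, the Dpysl2 call was lost in edgeR and at an offset of 8, the Gldc call in a robust fit and without the trend, and the Sik1, Ciart, Lifr and Zfp292 calls without the trend. A block on runs of library numbers ended the Hdgf and Ciart calls, an offset of 8 that of Hdgf and an offset of 0.5 that of Slc24a3.

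**Figure D2:**
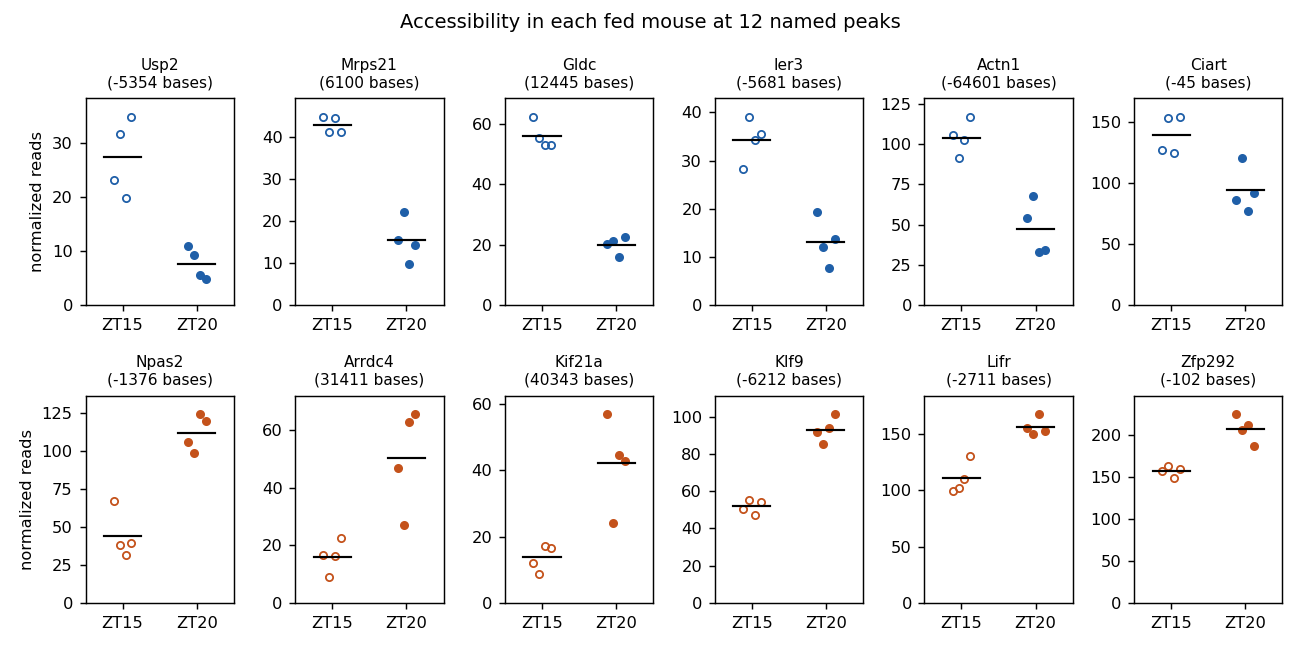
Normalized reads (y axis, from 0) in each of the 4 ZT15 mice (open circles) and 4 ZT20 mice (filled circles) at 12 named peaks, with the mean as a bar and the distance from the peak to the nearest start site under each gene name. Blue peaks are lower and orange peaks higher at ZT20, and the 4 and 4 mice overlap in none of the panels. All 12 peaks were chosen among those that passed on these same levels.

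Beside Ciart and Npas2, no clock gene had a peak that passed at its start site. For 19 clock genes the peak nearest the start site lay within 1 kb, and 18 of these peaks did not pass (limma adjusted p = 0.596 to 0.996). The promoter peak of Per1, a repressor, held 93.0, 114, 106 and 118 at ZT15 and 105, 119.8, 104 and 102 at ZT20, with a 95% interval of the difference from -0.25 to 0.26. For Arntl, the obligate activator, the interval ran from -0.32 to 0.23, for Nr1d1 from -0.10 to 0.44 and for Cry1 from -0.09 to 0.32. Dbp was the least certain, with 35.3, 30.2, 24.7 and 28.3 at ZT15 and 20.2, 26.9, 27.2 and 21.4 at ZT20 and an interval from -0.84 to 0.27; a fall of the size seen at Ciart is inside it. Among these nearest peaks the largest positive difference was at Bhlhe41, a repressor that binds E-boxes, 0.25 ± 0.20 (limma adjusted p = 0.815). Another promoter peak of Clock, 478 bases upstream, held 67.7 ± 5.35 normalized reads at ZT15 and 82.3 ± 3.52 at ZT20. Its mice did not overlap, but its difference of 0.28 ± 0.13 did not pass (limma adjusted p = 0.586).

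**Figure D3:**
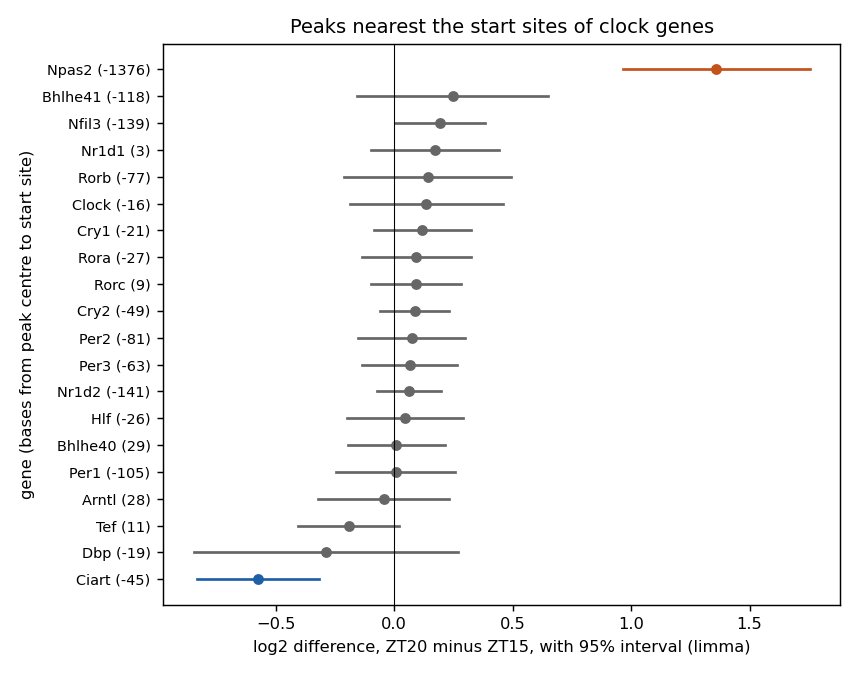
The x axis shows the log2 difference ZT20 minus ZT15 with its 95% interval from limma (points and lines) at the peak nearest the start site of each clock gene, 4 fed mice per time, with the distance in bases in brackets. For Npas2, which has no peak within 1 kb, the peak 1376 bases upstream is drawn; it and the Ciart promoter are coloured because they passed, and the grey intervals of the others include 0 or, at Nfil3, come close to it.

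Counted over all peaks within 50 kb whose nearest start site is that of a list gene, the 6 clock activator genes had 30 peaks, of which 1 was higher (Npas2) and 0 lower. At an unadjusted p under 0.05 there were 4 higher and 0 lower. These 4 are the 3 Npas2 peaks, which lie together upstream of its start site, and the Clock peak 478 bases upstream. Of this list edgeR and DESeq2 each called 3 peaks, against 147 and 252 of all 46827 tested peaks. The 10 clock repressor genes had 63 peaks, of which 0 were higher and 1 lower (Ciart). Here 2 were higher and 10 lower at an unadjusted p under 0.05 (19.0%, against 8.17% of all tested peaks), edgeR called 2 and DESeq2 5, and the median difference was 0.01. Among the 10 lower are the Ciart peaks 471 and 45 bases upstream and 201 and 2966 bases downstream, so several come from 1 gene. An intronic Per3 peak, 1191 bases from the start, came closest to the threshold, 53.2 and 31.2 normalized reads at ZT15 and ZT20 (limma adjusted p = 0.0629). The 4 PAR bZIP output genes had 42 peaks, of which limma, edgeR and DESeq2 called 0, with 4 higher and 2 lower at an unadjusted p under 0.05.

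Most of the peaks lower at ZT20 also differed between dusk (ZT12) and morning (ZT4), a comparison added after their levels were seen. Of the 44, 38 had their highest fed mean at ZT12 and 35 their lowest at ZT4. These ranks also use the ZT15 and ZT20 means that chose the peaks, so ZT20 could not be the highest time nor ZT15 the lowest. The ZT12 and ZT4 levels come from 8 other fed mice, which did not choose the peaks. The ZT12 against ZT4 comparison still shares the fit's estimate of each peak's spread with the one that chose them. In limma 42 of the 44 passed as higher at ZT12 than at ZT4, against 2894 of all tested peaks (6.18%), and none passed as lower. Their median difference, ZT12 minus ZT4, was 1.95. The Usp2 peak held 41.6 ± 12.9 normalized reads at ZT12 and 5.98 ± 2.33 at ZT4, a difference of 2.45 ± 0.28 (limma adjusted p = 5.73e-08). The Mrps21 peak near Ciart had 78.9 ± 10.7 and 10.01 ± 1.92, and the Gldc peak 84.8 ± 4.65 and 10.4 ± 2.69. The exceptions that did not pass were the peaks labelled Ctif, with 0.22 ± 0.08 (limma adjusted p = 0.0582), and Epb41l4aos, with -0.03 ± 0.13 (limma adjusted p = 0.892).

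The 24 higher peaks ran the other way, with a less uniform course. Of these, 19 had their lowest fed mean at ZT15, 14 their highest at ZT4 and 8 at ZT20. The choice of the peaks puts ZT15 below ZT20, so the low rank of ZT15 follows in part from it. In limma 16 of 24 passed as lower at ZT12 than at ZT4, against 5261 of all tested peaks (11.2%), and none as higher, with a median difference of -0.63. At Npas2 the level was 19.6 ± 2.04 at ZT12 and 72.2 ± 9.66 at ZT4 (-1.78 ± 0.19; limma adjusted p = 2.28e-08), so that ZT20 was the highest of the 4 times. The Klf9 peak, in contrast, was high at ZT4 and ZT12, 139 ± 10.1 and 111 ± 30.2, and did not pass between them (limma adjusted p = 0.0877). For Arrdc4 the levels were 47.1 ± 18.2 at ZT4 and 22.0 ± 5.22 at ZT12 (limma adjusted p = 0.0221). The split of all peaks called between ZT12 and ZT4 turns with the scaling, from 2894 higher and 5261 lower as deposited to 3399 and 2161 after each library was centred on its median and 3483 and 1797 in edgeR, while the count among the 44 was 43 in both and that among the 24 was 14 in both. Leaving out 1 of those 8 mice gave 40 to 42 and 13 to 17.

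**Figure D4:**
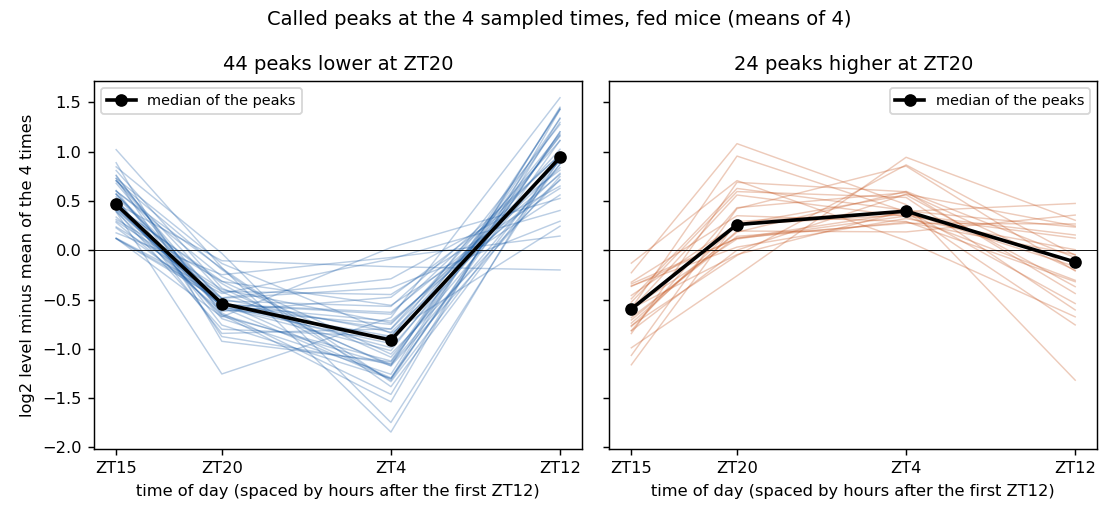
Each thin line is 1 of the 68 peaks that passed, as the log2 level of its mean over 4 fed mice minus its mean over the 4 sampled times (y axis), against time of day from ZT15 to ZT12 (x axis, spaced by hours); the black line is the median. In the left panel 38 of 44 lines are highest at ZT12 and 35 lowest at ZT4, and in the right panel 19 of 24 are lowest at ZT15. The order of ZT15 and ZT20 within each panel is set by the choice of the peaks.

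The same hours were sampled in other female HEP-INTACT mice, 4 per time, that had no food from ZT12, after 3 h and 8 h of fasting. Many more peaks differed there, 7276 of 46827 (15.5%), 5101 higher (10.9%) and 2175 lower (4.64%), with a median difference of 0.10 over all tested peaks. After median centring the split was 2186 higher and 2781 lower, and in edgeR 1871 and 3325. Of the 44 peaks lower in fed mice, 37 had the same sign and 28 passed as lower in fasted mice, against 4.64% of all tested peaks. At Usp2 the fasted difference was -1.002 ± 0.28 (limma adjusted p = 0.0153), and at the Mrps21 peak -1.62 ± 0.23 (limma adjusted p = 3.13e-05). Of the 24 higher peaks, 17 had the same sign and 7 passed as higher, against 10.9% of all tested peaks. Npas2 was among the 7, with 38.7 ± 14.6 at 3 h and 81.8 ± 18.8 at 8 h (1.08 ± 0.19; limma adjusted p = 0.000445). The median fasted difference over all tested peaks was itself above 0, so a positive sign was the more frequent one there. The counts among the 44 and the 24 were not taken after median centring or in edgeR.

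The difference between ZT20 and ZT15 was unequal in fasted and fed mice at 1184 of all tested peaks in limma (2.53%; 1.52% higher and 1.01% lower in fasted mice). That split was 710 higher and 474 lower, and it turned to 491 and 618 after median centring, 544 and 901 in edgeR and 676 and 1088 in DESeq2. Of the 68 peaks 13 were among them, 6 of the lower and 7 of the higher ones. The 68 were chosen for their fed difference, which is subtracted here, so the choice itself moves fasted minus fed away from the fed sign. The count is therefore not read against the share of all peaks, and the values below are a description. Slc24a3 had the widest gap among the lower peaks: it fell in fed mice and held 16.3 ± 5.31 and 18.5 ± 4.08 in fasted mice (fasted minus fed difference 1.40 ± 0.38; limma adjusted p = 0.0361). Actn1 likewise had 133 ± 20.5 and 126 ± 12.1 in fasted mice (1.09 ± 0.26; limma adjusted p = 0.0169). A peak 7661 bases from Armc12 and 37.1 kb from Fkbp5, a co-chaperone of the glucocorticoid receptor, fell from 29.0 ± 10.3 to 12.9 ± 2.58 normalized reads in fed mice and was high at both times in fasted mice, at 93.3 ± 18.5 and 95.7 ± 27.4 (1.03 ± 0.28; limma adjusted p = 0.04). Among the higher peaks, Plcxd2, a phospholipase-like gene, rose from 23.2 ± 7.37 to 46.2 ± 3.14 normalized reads in fed mice and had 66.3 ± 10.04 and 45.9 ± 18.6 in fasted ones (-1.57 ± 0.31; limma adjusted p = 0.00399). The peak labelled 4921511C10Rik lies in Rapgef2, an exchange factor of RAP proteins, and rose from 22.8 ± 6.29 to 65.8 ± 22.3 normalized reads against 50.7 ± 11.2 and 43.1 ± 7.80 (-1.64 ± 0.33; limma adjusted p = 0.00486). The fed call passed in 4 of the 8 fits without 1 mouse at Armc12, 2 at Plcxd2 and 8 at 4921511C10Rik, with adjusted p up to 0.137, 0.216 and 0.0268, and that of Plcxd2 was lost without the trend. At the Ciart promoter fasted mice held 181 ± 39.3 and 182 ± 28.2, and the difference from fed mice did not pass (0.59 ± 0.18; limma adjusted p = 0.0631).

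**Figure D5:**
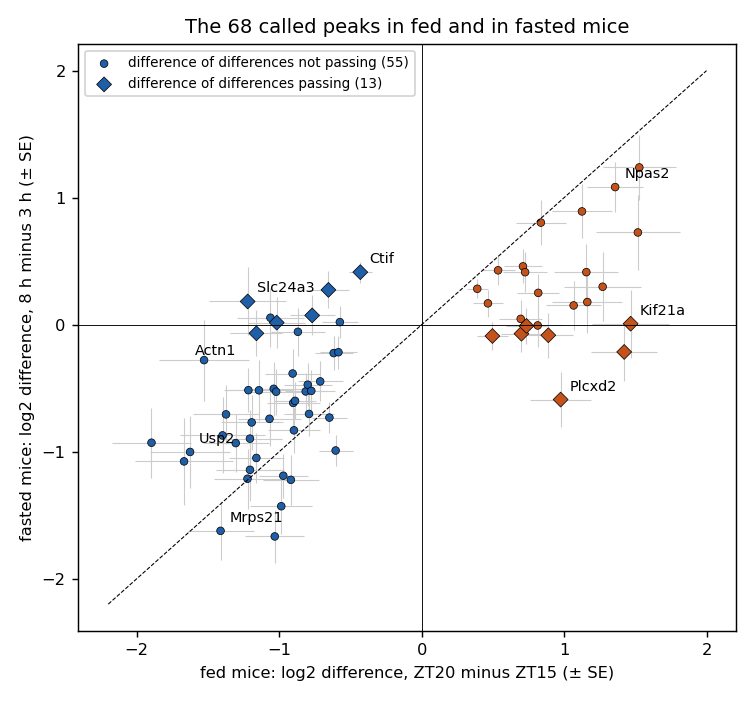
The 68 peaks that passed in fed mice, with the fed log2 difference on the x axis and the fasted one, from other mice, on the y axis, both ± SE; blue peaks are lower and orange peaks higher at ZT20 in fed mice, and the dashed line marks equal differences. Diamonds are the 13 peaks whose fasted and fed differences were unequal in limma, and 37 of the 44 blue and 17 of the 24 orange peaks lie on the same side of 0 in both.

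Macrophage nuclei of other fed female mice (MAC-INTACT, 4 per time, tagged in macrophages) were sampled at the same times, in a table normalized on its own, so that differences but not levels can be set side by side. There 13 of 30170 peaks passed in limma (0.0431%), 6 higher and 7 lower at ZT20, and 1 to 7 when 1 of the 8 mice was left out. Median centring gave 6 higher and 11 lower, and edgeR on recovered reads 16 and 25. Of the 68 hepatocyte peaks, 7 overlapped a macrophage peak by at least 1 base, 2 higher and 5 lower, and all 7 had the same sign in macrophages. Of the 14198 hepatocyte peaks with such an overlap 0.0493% passed in hepatocytes and 0.0423% in macrophages. None of the 7 passed there in limma or in edgeR, and 1 had an unadjusted p under 0.05 in each (in limma 8.07% of all macrophage peaks). That one was the Ciart promoter, with -0.37 ± 0.10 in macrophages (limma adjusted p = 0.216; edgeR adjusted p = 0.0651). The reverse held at the Dbp peak nearest the start, which passed in macrophages at -1.06 ± 0.18 (limma adjusted p = 0.00332) and not in hepatocytes at -0.29 ± 0.28, and at an intronic Nr1d1 peak 1591 bases from the start, with -0.82 ± 0.10 (limma adjusted p = 4.96e-06) and -0.26 ± 0.12. The Dbp peak 850 bases downstream also passed in macrophages only (-1.01, limma adjusted p = 0.0151, and -0.26). Those 833 and 338 bases upstream passed in neither cell type (-0.49 and -0.56, -0.14 and -0.02). Single macrophage calls were not followed in the fits without 1 mouse. The difference between the cell types was not tested.

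With 0.145% of all tested peaks passing, lists of this size hold about 0 or 1 such peak, and the counts below do not set the lists apart. At an unadjusted p under 0.05 the share over all tested peaks was 8.17%. Limma, edgeR and DESeq2 called 0 of 77 peaks of cholesterol synthesis (1 higher and 1 lower at an unadjusted p under 0.05), 0 of 266 of amino acid catabolism and the urea cycle (12 and 6) and 0 of 151 of bile acid synthesis and transport (11 and 7). Of 179 peaks of fatty acid and triglyceride synthesis, limma and edgeR called 0 and DESeq2 1 (3 higher and 11 lower at an unadjusted p under 0.05), and of 156 of fatty acid oxidation and ketogenesis limma and edgeR called 0 and DESeq2 2 (6 and 6). Gluconeogenesis had 1 lower of 138 peaks (Sik1, which restrains that programme) and immediate early and AP-1 genes 1 lower of 104 (Ier3). Glucocorticoid response genes had 1 higher of 191 peaks, Klf9, with 22 higher and 5 lower at an unadjusted p under 0.05 (14.1%). Acute phase genes had 1 higher of 144, Lifr, a receptor and not a plasma protein, with 19 higher and 2 lower (14.6%). The growth hormone and STAT5 list had 0 of 118 in limma, edgeR and DESeq2, with 15 higher and 0 lower at an unadjusted p under 0.05 (12.7%) and a median difference of 0.11 against 0.03 over all tested peaks. The 4 and 4 mice did not overlap at 19 glucocorticoid (9.95%), 19 acute phase (13.2%) and only 4 growth hormone peaks (3.39%), against 7.69% of all tested peaks. Fitted on the 2 fed groups alone, 11 glucocorticoid, 6 acute phase and 7 growth hormone peaks were called higher and 1, 0 and 0 lower, with 1.65% of all tested peaks called.

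By position, 4 of the 16351 promoter peaks were higher and 5 lower (0.055% together). Between 1 and 10 kb from a start site 5 of 10453 were higher and 16 lower (0.201%), between 10 and 50 kb 12 of 12932 higher and 13 lower (0.193%), and beyond 50 kb 3 of 7091 higher and 10 lower (0.183%). In introns 9 of 17612 tested peaks were higher and 23 lower (0.182%), and between genes 11 of 12859 were higher and 16 lower (0.21%). The promoter peaks also had the narrower middle 90% of differences, from -0.22 to 0.26, against -0.42 to 0.38 at peaks 10 to 50 kb away.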

How the data were processed

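ATAC-seq was measured in hepatocyte nuclei of 32 mice and macrophage nuclei of 32 others. The submitters' processing notes name mm10 and, with no roles stated, DESeq2, HOMER, SAMtools and BWA (0.7.5a-r405). The authors deposited 1 signal table per cell type, named normalized counts, with peaks, nearest genes and distances. Every value of both tables is a whole number of reads, within 0.01, times 1 factor per library, whose origin is not given in the sources used here. These recovered reads, 2458156 to 6098645 per hepatocyte and 1729720 to 4637873 per macrophage library, entered edgeR 4.0.16 and DESeq2 1.42.0 as alternatives. The macrophage table has 1 column per mouse; how the technical duplicates named in the labels were joined is not given in the sources used here.

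limma 3.58.1 (R 4.3.3) was fitted to log2(value + 2) with a trend and 8 group means per cell type, over peaks with a mean of at least 10. Tests were two-sided and were tested on simulated data. No hepatocyte library was a copy of another: at most 3.43% of peaks had equal reads in a pair of hepatocyte libraries. Named peaks are the 10 of largest change in each direction with no overlap of mice, 5 in each direction at promoters, up to 2 passing per list, the promoter peak of each clock gene, and 5 in each direction of largest unequal change in fasted mice. Some predicted genes, and peaks shown only by count, were passed over. The members, the 24 gene lists and the rules were chosen with earlier results of these data known. No genome was used, so motifs were sought only in RefSeq promoter windows. The numbers in the labels pair no mice.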

Additional observations from a re-analysis of the deposited data

Results flagged for a closer look

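Among the named peaks, 11 had a difference between ZT20 and ZT15 that was unequal in fasted and fed mice by the limma interaction, out of 1184 such peaks in the whole table. Most named peaks were chosen for their fed difference, which is subtracted here, so the sign of these values follows in part from that choice. The fasted minus fed difference was positive at Slc24a3 (1.40), Actn1 (1.09), Armc12 (1.03), Nln (0.93), a peptidase gene, and Ctif (0.84), a translation factor gene. It was negative at Lifr (-0.59), 1700009N14Rik (-0.77), Tm9sf3 (-0.97, the peak inside Pik3ap1), Kif21a (-1.46), Plcxd2 (-1.57) and 4921511C10Rik (-1.64). At Ctif the peak fell from 182 ± 5.59 to 135 ± 14.8 normalized reads in fed mice and had 175 ± 10.9 at 3 h and 233 ± 11.6 at 8 h in fasted mice, where it passed as higher (limma adjusted p = 0.00126).

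In 5 of 108 groups of 4 mice examined, 1 mouse stood apart from the other 3; chance gives this in about 1 of 20 groups, here 5.4, so the number of cases is no more than chance gives. The highest ZT20 mouse had 79.8 normalized reads at the Sik1 peak, where the others had 47.6 to 50.5, and 119.8 at the Per1 promoter. The lowest ZT15 mouse had 128.9 at the Bhlhe40 promoter, a clock repressor. At the Dph6 peak the lowest mouse stood apart at both times, with 18.6 at ZT15 and 44.6 at ZT20, and the peak rose with the groups apart.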

How the results depend on the processing

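The number of peaks that passed between ZT20 and ZT15 in fed mice depends on the fit. The 68 calls became 771 with only the 2 fed groups in the fit, 301 with the 4 fed groups, 262 after quantile normalization, 147 in edgeR, 252 in DESeq2, 28 among peaks with a mean of at least 50, 9 among promoter peaks alone and 33 with a fold of at least 2. The last 3 counts are of fewer peaks or add a criterion; the cause of the other shifts was not tested. Offsets of 0.5 and 8, no filter, median centring, a robust fit, no trend, reads in peaks as a covariate and the block on library numbers gave 67 to 94. Among the 53 named peaks, calls were lost without the trend at Gldc, Sik1, Nln, Ciart, Zfp292, 4930526I15Rik, Lifr and Plcxd2 (adjusted p up to 0.102), under the block at Hdgf, Nln and Ciart (up to 0.0555), at an offset of 8 at Dpysl2 and Hdgf (up to 0.0522), at an offset of 0.5 at Slc24a3 (0.0507), in the robust fit at Gldc (0.079), in edgeR at Dpysl2 (0.0582) and at a mean of at least 50 at Nln and 4930526I15Rik (0.0529). Leaving out 1 mouse gave 20 to 120. All 68 were also called in both fits on fed groups and in DESeq2, and 67 in edgeR; 12 held in each of the 8 fits without 1 mouse and 3 in none. Without 1 mouse, the unequal changes ranged from 630 to 1420 (1184 with all), the fasted calls from 4217 to 7714, the macrophage calls from 1 to 7 and the ZT12 against ZT4 calls from 4918 to 7895; edgeR gave 5280 for the last. Medians of the 24 lists moved by less than their spread between mice at 10 kb and under median centring. In edgeR the 13 macrophage calls became 41. No paired analysis was possible because the labels number no mice across groups; the block above is on 3 runs of library numbers, which pair no mice. The median 95% interval of a single peak was ± 0.33 on the log2 scale; it covers the spread between mice, is not the smallest difference that can pass, and the part of depth in it was not tested.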
